A study of Mus musculus with 6 samples.

Results

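The renin-angiotensin system genes followed here are Ren1, Agt, Ace, Agtr1a, Mas1, Mme, Enpep and Anpep. They were chosen by symbol as the precursor, the enzymes and the receptors of the pathway, and all 8 were found among the 57180 genes listed for each kidney library. Kidney RNA came from wild-type male C57BL/6J mice, which were 7 weeks old when purchased. Nanoplastic mice (n = 3) received cationic polystyrene nanoparticles by mouth at 200 mg/kg once daily for 6 weeks, and vehicle mice (n = 3) received deionized water (0 mg/kg). Each mouse gave 1 library of total RNA, so the spread between libraries is a spread between animals. Only 1 dose and 1 time were studied, and each library mixes every cell type of the kidney.

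The renin-angiotensin system controls blood pressure and salt balance. Renin, released by juxtaglomerular cells of the afferent arteriole, cuts angiotensinogen to angiotensin I, and angiotensin-converting enzyme (ACE) turns that into angiotensin II, which acts on the AT1 receptor. Neprilysin makes angiotensin 1-7, a ligand of the receptor Mas, and aminopeptidases trim angiotensin II further. In the kidney the proximal tubule holds angiotensinogen and, on its brush border, most of these peptidases.

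None of the 8 genes passed the test between nanoplastic and vehicle kidneys. All 8 passed the count filter, and 0 of the 8 had a Benjamini-Hochberg adjusted p under 0.05 in edgeR's quasi-likelihood test, as did 0 of all 18092 genes tested (0%). At an unadjusted p under 0.05 there was 1 of the 8, Anpep, against 7.42% of all genes tested (3.61% lower and 3.8% higher in nanoplastic). limma-voom and DESeq2 also called 0 of the 8, where limma-voom called 0 of all genes and DESeq2 55 of 31316 genes with a p (0.176%). DESeq2 gave Mas1 no adjusted p, so it could not have called that gene. DESeq2 gave an unadjusted p under 0.05 to Anpep (0.0174) and Ace (0.0386), as it did to 2.92% of all genes with a p. That share includes genes with very few counts. On the genes past edgeR's filter, DESeq2 gave such a p to 4.97%, and again to Anpep (0.0186) and Ace (0.0460). The log2 fold changes of the 8, nanoplastic over vehicle, ran from -0.27 for Anpep to 0.19 for Mas1, with a median of 0.0031, against 0.0068 over all genes tested. Of the 8 values 4 were negative, where 48% of all genes tested were. For 7 of the 8 genes, all but Mas1, the 95% interval lay wholly within 1.5-fold up or down, as it did for 63.6% of all genes tested.

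The libraries held 19408534 to 26292760 expected counts. Markers of the kidney were abundant, with the proximal tubule transporter Slc34a1 at 3316 to 3953 CPM (depth-scaled counts after TMM scaling) in nanoplastic and 3502 to 3819 CPM in vehicle libraries. Of 6 adrenal markers, Cyp11b1, Cyp11b2 and Dbh had 0 counts in all libraries, Cyp11a1 and Th reached at most 0.0850 CPM, and Star, a cholesterol carrier of steroid-making cells, had 5.89 to 7.51 CPM in nanoplastic and 4.77 to 5.99 CPM in vehicle. A few libraries stood apart. The 7 adipocyte markers summed to 216.7, 29.9 and 24.8 CPM in nanoplastic 1, 2 and 3, and to 36.8, 41.7 and 80.1 CPM in vehicle 1, 2 and 3. The 7 markers of the early proximal tubule (S1 and S2) summed to 14289 CPM in nanoplastic 1, against 16130 and 17092 CPM in nanoplastic 2 and 3 and 16009 to 16915 CPM in vehicle. Not all markers followed that sum, since Slc5a12, a lactate transporter of the same segments, had 394.1 CPM in nanoplastic 1 and at most 372.7 CPM in vehicle. The 5 urothelial markers summed to 17.4, 2.50 and 2.86 CPM in nanoplastic and 5.46, 3.82 and 1.70 CPM in vehicle mice, again highest in nanoplastic 1. Immediate early genes (5 markers) summed to 98.9 CPM in vehicle 2 and to 24.0 to 34.8 CPM in the other libraries. Nanoplastic 1 thus had the highest adipocyte and urothelial sums and the lowest early proximal tubule sum. Values without nanoplastic 1 are given for some of the genes only. Others named below also moved without it, such as Nr3c2 (log2 fold change 0.13, or 0.09 without it) and Nln (-0.08, or -0.02 without it).

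Transcript levels of the 8 genes could be set side by side only per length, in the TPM that the authors deposited. Ace, Enpep, Ren1 and Mme formed the upper group, Agt, Agtr1a and Anpep a lower one, and Mas1 was far below. Ace averaged 26.25 ± 2.74 TPM in nanoplastic and 28.4 ± 3.02 TPM in vehicle kidneys (SD, n = 3 each), and Enpep averaged 26.8 ± 1.45 and 26.9 ± 2.83 TPM in the same order of groups. Over all 6 libraries Ren1 ranged from 14.1 to 29.5 TPM and Mme from 16.1 to 20.3 TPM. Ace and Enpep were each above Mme in all 6 libraries without overlap, while the order of Ace and Enpep, and the place of Ren1 among these 4, lay within the spread. Mme was above Agt in 6 of 6 libraries with no overlap, Agt reaching at most 12.3 TPM. Agt (8.50 to 12.3 TPM), Agtr1a (7.98 to 10.8 TPM) and Anpep (7.06 to 10.1 TPM) overlapped each other. Mas1 reached at most 0.930 TPM, below the lowest value of every other member. These TPM values carry the share of the short 7SL RNA genes Rn7s1 and Rn7s2, which took 55.5% to 59.4% of all TPM in a library.

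**Figure D1:**
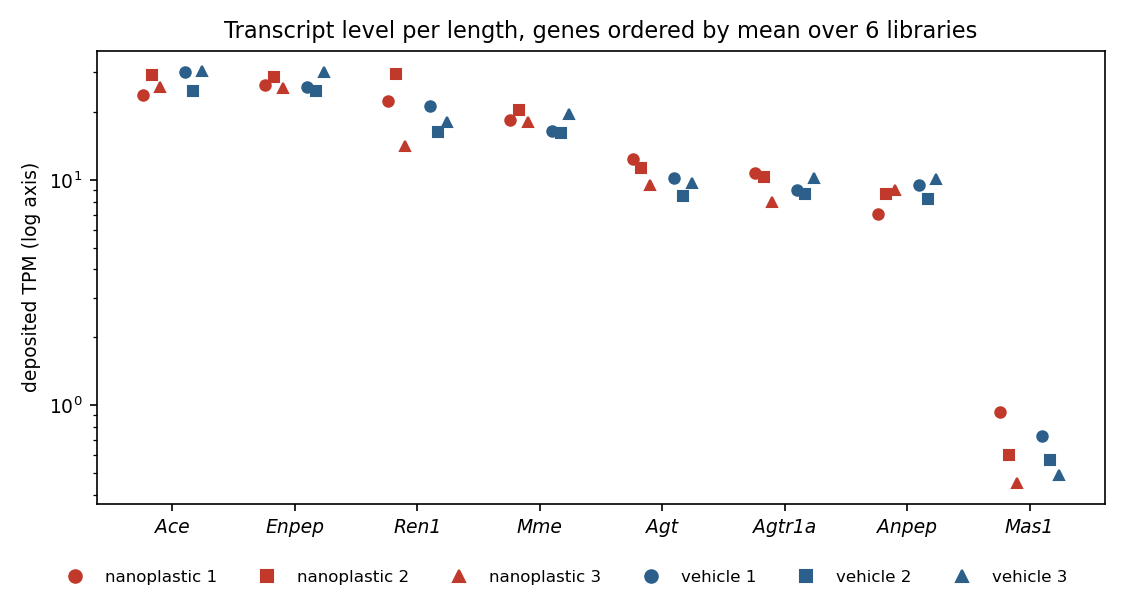
Deposited TPM on a log axis for the 8 genes in each of 6 kidney libraries, nanoplastic in red and vehicle in blue, with the genes ordered by their mean over the libraries. Mas1, at 0.450 to 0.930 TPM, lies below all others, and the 4 highest genes overlap their neighbours.

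Agt encodes angiotensinogen, the precursor of all angiotensin peptides. Agt measured 37.3, 34.2 and 32.6 CPM in nanoplastic mice 1, 2 and 3, against 34.4, 29.8 and 29.8 CPM in vehicle mice 1, 2 and 3. The groups overlapped because vehicle 1 was above nanoplastic 2 and 3. Nanoplastic over vehicle gave a log2 fold change of 0.15 (SE 0.08), with a 95% interval of -0.04 to 0.34 and an edgeR adjusted p of 0.725. Agt is also made by fat cells, and the adipocyte hormone gene Adipoq had 18.0 CPM in nanoplastic 1 and 5.52 CPM in vehicle 3, and at most 0.104 CPM in each of the other libraries. Without these 2 libraries together the log2 fold change of Agt was 0.06 (SE 0.10), and without nanoplastic 1 alone it was 0.09 (SE 0.09). Kidney angiotensinogen mRNA is known to respond to androgen in rodents, and the 7 androgen-responsive genes fixed as markers were all negative (median log2 fold change -0.28), none of them past the adjusted threshold in edgeR with all libraries. Acsm3 was called by DESeq2, and by edgeR without vehicle 3 and nanoplastic 1. Among them, Odc1, ornithine decarboxylase, measured 988.3, 992.0 and 1407 CPM in nanoplastic and 1548, 1840 and 1435 CPM in vehicle mice. The part of fat or of androgen-responsive genes in the Agt values was not tested.

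Ren1 encodes renin, and C57BL/6J mice carry a single renin gene. Ren1 measured 56.0, 74.1 and 39.9 CPM in nanoplastic mice 1, 2 and 3, against 59.3, 47.1 and 45.8 CPM in vehicle mice 1, 2 and 3. The highest and the lowest of the 6 values were both in nanoplastic kidneys. The coefficient of variation was 30.2% in nanoplastic and 14.7% in vehicle, where the medians over all genes tested were 10.2% and 9.19%. The mean was 56.7 ± 17.1 CPM in nanoplastic and 50.7 ± 7.45 CPM in vehicle (SD, n = 3 each), with a log2 fold change of 0.16 (SE 0.18), a 95% interval of -0.24 to 0.57 and an edgeR adjusted p of 0.854. The value depended on single libraries of the nanoplastic group. It was -0.08 (SE 0.15) without nanoplastic 2 and 0.36 (SE 0.14, unadjusted p = 0.0273, adjusted p = 0.486 in the edgeR model) without nanoplastic 3, and 0.29 (SE 0.20) without vehicle 1, 0.11 without vehicle 2 and 0.10 without vehicle 3.

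In bulk tissue, fewer cells of a type and less RNA per cell cannot be told apart, which matters most for a gene made by as few cells as Ren1. Akr1b7, an aldo-keto reductase of renin cells, measured 2.64, 2.55 and 2.91 CPM in nanoplastic and 2.84, 2.99 and 2.42 CPM in vehicle mice. These rest on 56 to 73 counts in a library, so their order between libraries is not resolved. The 9 mural and juxtaglomerular markers summed to 258.7, 230.4 and 233.9 CPM in nanoplastic and 257.6, 232.1 and 237.2 CPM in vehicle mice 1, 2 and 3. The sum does not show single markers, of which 4 were positive and 5 negative. Their log2 fold changes ran from -0.33 for Tagln to 0.20 for Myh11. Only Tagln, 1 of the 9, had an unadjusted edgeR p under 0.05, against 7.42% of all genes tested. Slc12a1, the salt transporter of the thick limb and macula densa, measured 1383, 1396 and 976.3 CPM in nanoplastic and 1306, 1313 and 1086 CPM in vehicle mice, so nanoplastic 3 was lowest for both Slc12a1 and Ren1. Whether the share of cortex or of thick limb in the sampled tissue took part in the Ren1 values was not tested.

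The Ren1 promoter is shown because renin is the enzyme that starts the cascade and the most variable of the well-measured members. It is the RefSeq window on build GRCm38.p6 from 250 bases before to 50 bases after the start site, chr1:133350424-133350723, plus strand, and capitals mark the TATAAA motif, which begins at position -29 from the start site.
Ren1 promoter: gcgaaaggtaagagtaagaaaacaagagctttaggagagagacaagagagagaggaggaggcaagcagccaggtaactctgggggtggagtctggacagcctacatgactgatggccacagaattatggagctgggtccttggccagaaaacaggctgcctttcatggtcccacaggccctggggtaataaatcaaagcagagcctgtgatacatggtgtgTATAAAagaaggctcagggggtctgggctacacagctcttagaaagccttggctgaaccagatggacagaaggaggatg
TATAAA, searched on both strands, occurred in 13.6% of 32851 RefSeq promoter windows of the same length. The CCAAT motif, the TGACGT motif and the GGGCGG motif, searched likewise, were not in this window. The window of Agt also held TATAAA, at position -30, and on the opposite strand so did those of Enpep, at -52 and -1, and Ace.

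Ace encodes angiotensin-converting enzyme, found on endothelium and on the proximal brush border. Ace measured 189.9, 235.5 and 231.3 CPM in nanoplastic mice 1, 2 and 3, against 263.6, 232.2 and 248.3 CPM in vehicle mice 1, 2 and 3. Nanoplastic 1 was the lowest library, while nanoplastic 2 was above vehicle 2. Ace had a log2 fold change of -0.18 (SE 0.09), with a 95% interval of -0.38 to 0.01 and an edgeR adjusted p of 0.691. Without nanoplastic 1, the library with the lowest sum of early proximal tubule markers, it was -0.09 (SE 0.07), nearer to 0 than with all libraries by more than 1.5 times. The 6 endothelial markers summed to 392.4, 362.2 and 370.4 CPM in nanoplastic and 378.6, 372.5 and 363.6 CPM in vehicle mice, so nanoplastic 1 was highest for the endothelial sum and lowest for Ace.

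Ace has a promoter upstream of the gene, which gives the long somatic enzyme, and another within the gene, which is known to act in male germ cells and gives the short testis enzyme. The deposited tables bear on this choice because RSEM reports for each gene a length weighted by the estimated share of its transcripts. For Ace this length was 4656, 4675 and 4614 bases in nanoplastic and 4611, 4680 and 4690 bases in vehicle mice, and the ranges of the groups overlapped. In the GENCODE vM21 annotation the transcript from the upstream start has 4906 bases and the one from the internal promoter 2418 bases. Further transcripts that start within the gene, Ace-203 and Ace-204, have 3649 and 695 bases. The weighted length thus lay near the long transcript in all 6 libraries. The RefSeq windows of both starts (GRCm38.p6, plus strand) are chr11:105967698-105967997 for the upstream and chr11:105974939-105975238 for the internal one, and capitals mark matches on either strand to any of these 4 motifs.
Ace upstream promoter: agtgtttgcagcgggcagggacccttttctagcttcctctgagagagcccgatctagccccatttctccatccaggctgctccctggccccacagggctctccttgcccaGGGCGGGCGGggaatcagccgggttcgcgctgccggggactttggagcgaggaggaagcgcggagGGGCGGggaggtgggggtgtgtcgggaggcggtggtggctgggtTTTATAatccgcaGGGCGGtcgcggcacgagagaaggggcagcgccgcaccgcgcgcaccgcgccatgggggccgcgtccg
Ace internal promoter: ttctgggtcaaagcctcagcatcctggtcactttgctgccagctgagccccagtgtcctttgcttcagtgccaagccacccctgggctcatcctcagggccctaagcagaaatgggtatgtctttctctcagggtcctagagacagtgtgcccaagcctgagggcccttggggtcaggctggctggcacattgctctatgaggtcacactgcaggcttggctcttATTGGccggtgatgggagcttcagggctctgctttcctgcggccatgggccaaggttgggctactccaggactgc
The upstream window had a GC content of 69.7% and 4 matches to GGGCGG, at positions -140, -136, -75 and -18, the first pair overlapping each other, besides TATAAA on the opposite strand at position -31. The internal window had a GC content of 59.0% and 1 match, to CCAAT on the opposite strand at position -25. Of the 32851 windows 35.7% held the GGGCGG motif, 37.4% the CCAAT motif and 7.51% the TGACGT motif. A match describes the letters only.

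**Figure D2:**
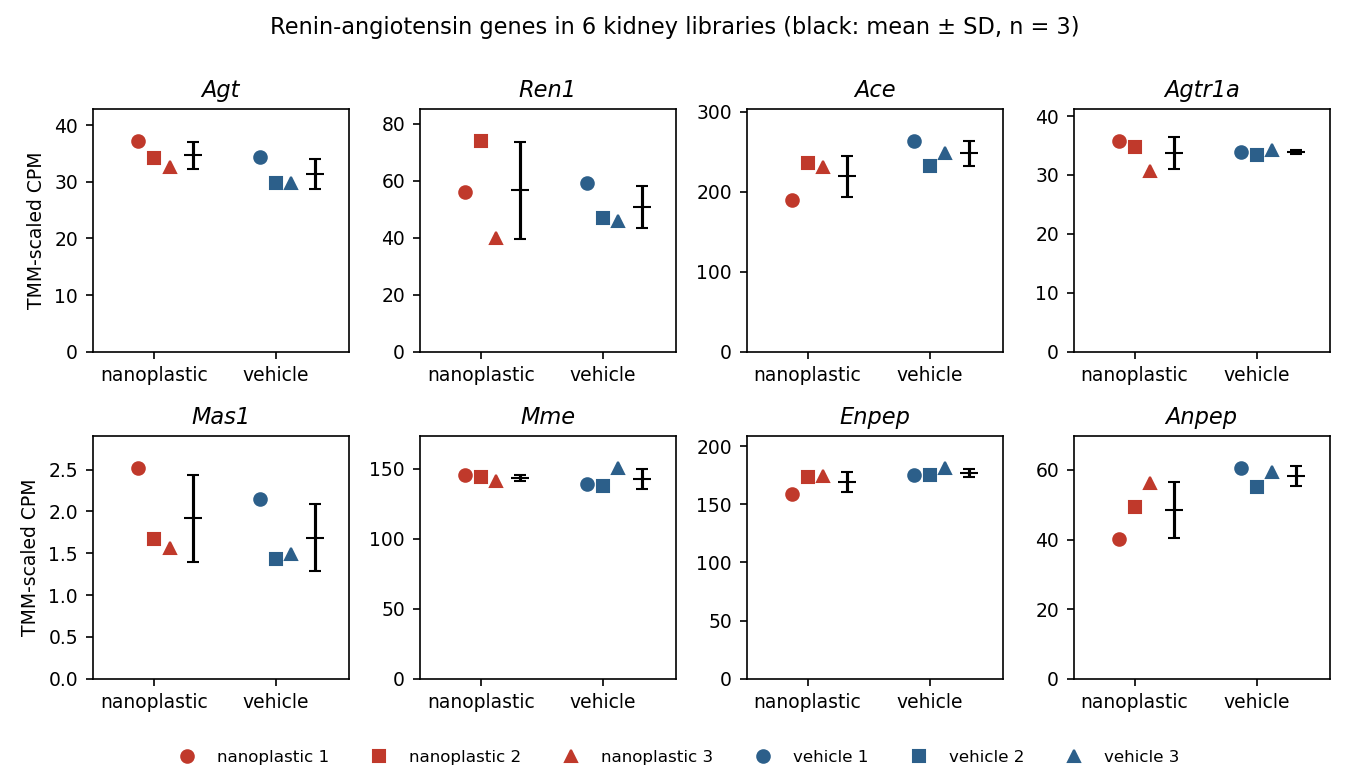
TMM-scaled CPM of each gene in the 3 nanoplastic (red) and 3 vehicle (blue) libraries, with the mean and SD of each group in black and every axis starting at 0. Nanoplastic 1 is lowest for Ace (189.9 CPM), Enpep (158.8 CPM) and Anpep (40.1 CPM), and Ren1 spans 39.9 to 74.1 CPM within the nanoplastic group.

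Agtr1a encodes the AT1a receptor, the main rodent receptor of angiotensin II, found on mesangial, vascular and tubular cells. Agtr1a measured 35.8, 34.7 and 30.6 CPM in nanoplastic mice 1, 2 and 3, against 33.9, 33.5 and 34.3 CPM in vehicle mice 1, 2 and 3. The vehicle values lay within the range of the nanoplastic values, and their coefficient of variation was 1.21%, against 8.09% in nanoplastic. The log2 fold change was -0.01 (SE 0.08), with a 95% interval of -0.17 to 0.16 and an edgeR adjusted p of 0.993. With scaling by library size alone it was 0.04, so it has no stable sign. The 5 mesangial markers summed to 131.9, 114.3 and 114.5 CPM in nanoplastic and 133.6, 128.3 and 112.1 CPM in vehicle mice. The other angiotensin receptors were at the edge of detection. Agtr1b, the other AT1 gene of rodents, had 2 counts over the nanoplastic and 4 over the vehicle libraries, and Agtr2, the AT2 receptor, had 7 and 15 in the same order.

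Mas1 encodes Mas, the receptor of angiotensin 1-7. It had 132 counts over the 3 nanoplastic and 123 over the 3 vehicle libraries, the fewest of the 8 genes. Mas1 measured 2.52, 1.67 and 1.56 CPM in nanoplastic mice 1, 2 and 3, against 2.14, 1.43 and 1.49 CPM in vehicle mice 1, 2 and 3. The groups overlapped, with replicate 1 highest in each. The log2 fold change was 0.19 (SE 0.27), and its 95% interval of -0.41 to 0.79 was the widest among the members (edgeR adjusted p = 0.890). It was -0.07 without nanoplastic 1 and 0.41 without vehicle 1. The annotation places Mas1 opposite the antisense gene Airn, and no source used here states whether strand was kept in the libraries. Reads from bases that both genes share may thus not be told apart, and whether their exons overlap was not examined. The same holds for Ace with the antisense gene Gm11651 and for Enpep with the pseudogene Gm42628 on the other strand. On the same strand the annotation places Gm44974 over Anpep, Gm48161 over Agtr1a and the microRNA gene Gm24085 over Mas1. The weighted transcript length of Mas1 ran from 1410 to 1894 bases over the libraries, the widest relative range of the 8 genes, with 10 annotated transcripts sharing few counts.

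Mme encodes neprilysin, a brush-border and podocyte endopeptidase that turns angiotensin I into angiotensin 1-7. Mme measured 145.1, 144.1 and 141.2 CPM in nanoplastic mice 1, 2 and 3, against 139.1, 137.5 and 150.4 CPM in vehicle mice 1, 2 and 3. The nanoplastic values lay within the vehicle range. For Mme the log2 fold change was 0.01 (SE 0.06), with a 95% interval of -0.12 to 0.15 and an edgeR adjusted p of 0.979. The 6 podocyte markers, another source of Mme, summed to 218.4, 239.0 and 265.5 CPM in nanoplastic and 242.3, 243.6 and 256.1 CPM in vehicle mice. Nanoplastic 1 was thus lowest for the podocyte and early proximal tubule sums and highest of its group for Mme. The weighted length of Mme, whose annotated transcripts reach from 569 to 8039 bases, was 4576, 4130 and 4045 bases in nanoplastic and 4425, 4310 and 4392 bases in vehicle mice, with overlap between the groups.

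Enpep encodes aminopeptidase A, which converts angiotensin II to angiotensin III. Enpep measured 158.8, 173.8 and 174.2 CPM in nanoplastic mice 1, 2 and 3, against 174.8, 175.0 and 181.1 CPM in vehicle mice 1, 2 and 3. It was the only one of the 8 genes whose groups did not overlap (12.9% of all genes tested did not overlap, 6.32% lower and 6.54% higher in nanoplastic), and nanoplastic 3 and vehicle 1 were nearly equal. For Enpep the log2 fold change was -0.07 (SE 0.06), with a 95% interval of -0.21 to 0.07 and an edgeR adjusted p of 0.828. Without nanoplastic 1 it was -0.02 (SE 0.07), and on the scale of log2(TPM + 0.1) with limma it was 0.0013.

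Anpep encodes aminopeptidase N (CD13), which trims angiotensin III to angiotensin IV and is also made by myeloid cells. Anpep measured 40.1, 49.3 and 56.3 CPM in nanoplastic mice 1, 2 and 3, against 60.6, 55.0 and 59.4 CPM in vehicle mice 1, 2 and 3. Only nanoplastic 3 lay above the lowest vehicle value, so 2 of the 3 nanoplastic mice were below every vehicle mouse. The mean was 48.6 ± 8.10 CPM in nanoplastic and 58.3 ± 2.94 CPM in vehicle kidneys (SD, n = 3 each). This was the largest negative fold change of the 8 genes, a log2 value of -0.27 (SE 0.11) with a 95% interval of -0.50 to -0.03, and it failed the correction over all genes (edgeR unadjusted p = 0.0309, adjusted p = 0.632). The value depended on nanoplastic 1. It was -0.14 (SE 0.08) without that library and -0.38 (SE 0.10, adjusted p = 0.318 in edgeR) without nanoplastic 3.

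Marker sums were set beside Anpep. The 7 early proximal tubule markers were lowest in nanoplastic 1, as given above, and the 7 markers of the late segment (S3) summed to 28158, 32061 and 33496 CPM in nanoplastic and 34542, 35661 and 32038 CPM in vehicle mice. Most of that sum was Kap, an androgen-responsive gene, and the other 6 markers summed to 7755, 8590 and 9203 CPM in nanoplastic and 8883, 8884 and 8768 CPM in vehicle mice. Within nanoplastic these sums were lowest in mouse 1 and highest in mouse 3, as Anpep was, whereas within vehicle Anpep was lowest in mouse 2, where the sum with Kap was highest. The 8 leukocyte markers summed to 65.6, 70.1 and 64.4 CPM in nanoplastic and 84.3, 85.4 and 70.7 CPM in vehicle mice, without overlap, and within nanoplastic that sum was lowest in mouse 3, where Anpep was highest. The part of tubule or leukocyte content in the Anpep values was not tested.

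**Figure D3:**
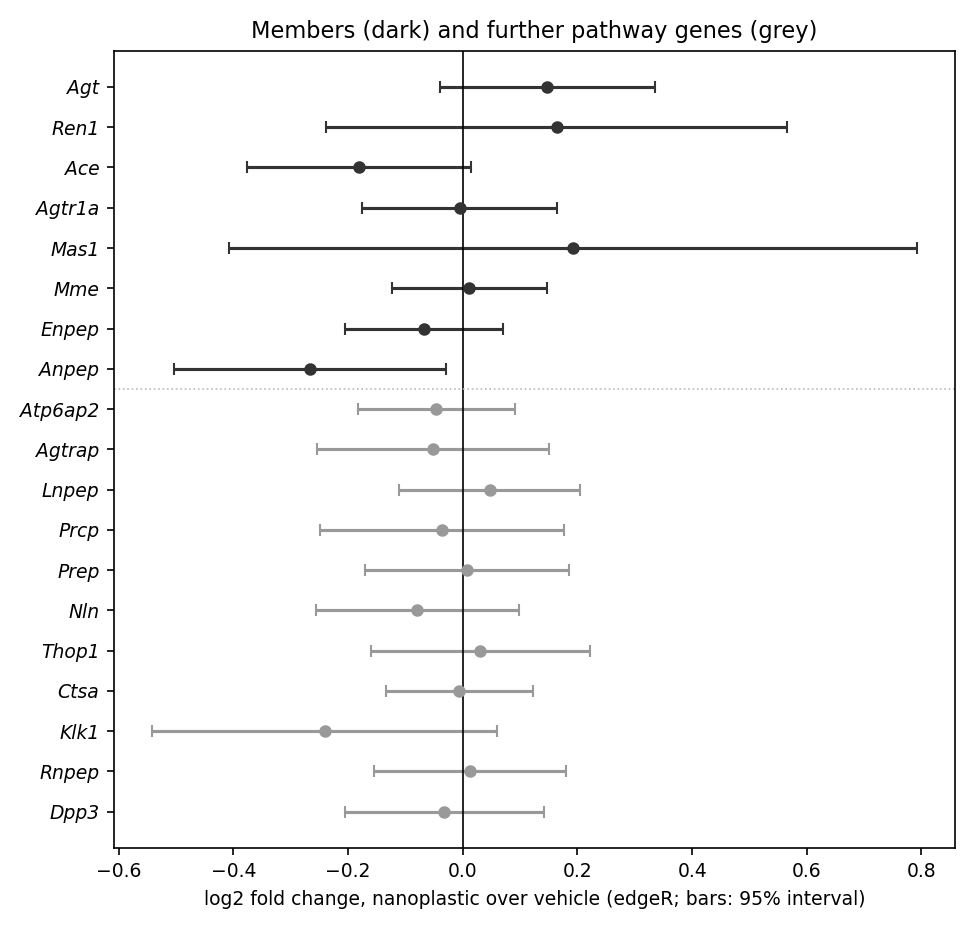
Log2 fold change, nanoplastic over vehicle, with 95% intervals from edgeR for the 8 members (dark, above the dotted line) and the 11 further renin-angiotensin genes that passed the count filter (grey). Anpep, from -0.50 to -0.03, is the only interval that does not include 0, and Mas1 and Ren1 have the widest intervals among the members.

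Of 17 further renin-angiotensin genes, 11 passed the count filter and 0 passed the test, 4 being positive and 7 negative with a median log2 fold change of -0.03. At an unadjusted p under 0.05 there were 0 of the 11. Klk1, tissue kallikrein, measured 864.3, 1032 and 1359 CPM in nanoplastic and 1260, 1332 and 1255 CPM in vehicle mice, with nanoplastic 3 above all vehicle mice and the other pair below them (log2 fold change -0.24, SE 0.14; -0.10 without nanoplastic 1). Atp6ap2, the prorenin receptor and a proton pump subunit, had a log2 fold change of -0.05 (SE 0.06), and Agtrap, which binds the AT1 receptor and lowers its surface level, of -0.05 (SE 0.09), or 0.05 without nanoplastic 1. Nln, neurolysin, and Lnpep, the angiotensin IV receptor, were at -0.08 (SE 0.08) and 0.05 (SE 0.07), and Dpp3, a dipeptidyl peptidase that degrades angiotensin II, at -0.03 (SE 0.08). Cma1, mast cell chymase, had 0 counts in nanoplastic and 2 in vehicle libraries, and Cpa3, another mast cell protease, had 2 in each group. Ctsg, cathepsin G, and Mrgprd, a receptor of alamandine, had 0 counts in all libraries, which allows up to 0.0442 CPM over the nanoplastic and 0.0415 CPM over the vehicle libraries, for counting error only, taking a floor of 3 counts over each group.

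Among 14 genes listed for renin cells and the macula densa, 0 passed the test, with 9 positive, 5 negative and a median log2 fold change of 0.08. At an unadjusted edgeR p under 0.05 there was 1 of the 14, Adcy6, against 7.42% of all genes tested. Adcy6 encodes an adenylyl cyclase, and cyclic AMP is known to drive renin release. Each library mixes every cell type of the kidney, so the values of this list cannot be assigned to renin or macula densa cells. Adcy6 measured 100.2, 101.1 and 101.6 CPM in nanoplastic and 81.3, 80.3 and 92.7 CPM in vehicle mice, without overlap (log2 fold change 0.25, SE 0.07, edgeR adjusted p = 0.501). Adcy5, another adenylyl cyclase of renin cells, was at 0.16 (SE 0.13), and Rbpj, a Notch pathway factor that keeps renin cell identity, at -0.07 (SE 0.08). Of the 14 genes 2, Adcy6 and Adcy5, did not overlap between the groups, where 12.9% of all genes tested did not. Adora1, the adenosine A1 receptor, which restrains renin release, measured 8.24, 3.59 and 1.61 CPM in nanoplastic and 2.92, 2.69 and 1.87 CPM in vehicle mice, with nanoplastic 1 far above the others and overlap between the groups (log2 fold change 0.89, SE 0.46, edgeR adjusted p = 0.698). Without nanoplastic 1 its log2 fold change was 0.11 (SE 0.31). The macula densa enzymes Nos1 and Ptgs2 were rare, with 74 and 47 counts in nanoplastic and 59 and 27 in vehicle libraries, and their log2 fold changes were 0.42 (SE 0.34) and 0.88 (SE 0.52). Nanoplastic 1 held 28 of the Ptgs2 counts, and without it the Ptgs2 value was 0.23 (SE 0.55).

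Downstream of the receptors, 0 of 11 genes of angiotensin II and mineralocorticoid signalling passed the test, and 0 had an unadjusted p under 0.05 (median log2 fold change -0.01). Nr3c2, the mineralocorticoid receptor through which aldosterone acts, measured 41.2, 37.6 and 37.4 CPM in nanoplastic and 34.7, 34.9 and 36.5 CPM in vehicle mice, without overlap (log2 fold change 0.13, SE 0.07, edgeR adjusted p = 0.708). Hsd11b2, which shields that receptor from glucocorticoid, was at 0.18 (SE 0.10). Sgk1, a kinase induced by aldosterone and glucocorticoid, measured 88.2, 49.9 and 54.2 CPM in nanoplastic and 41.9, 65.6 and 44.7 CPM in vehicle mice, with nanoplastic 1 the highest and overlap between the groups (log2 fold change 0.34, SE 0.21), and without it the value was 0.04 (SE 0.15). Gna11, a G protein subunit coupled to the AT1 receptor, and Plcb1, the phospholipase it activates, were at -0.04 (SE 0.07) and -0.09 (SE 0.08), and Arrb2, an arrestin, at 0.07 (SE 0.12). Of the 11 genes 2, Nr3c2 and Arrb2, did not overlap between the groups, where 12.9% of all genes tested did not.

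A further list of brush-border peptidases and related genes gave 3 positive and 5 negative of 8 genes measured. The median log2 fold change was -0.07, and 0 passed the test. At an unadjusted edgeR p under 0.05 there was 1 of the 8, Folh1, against 7.42% of all genes tested. Folh1, a glutamate carboxypeptidase, measured 127.4, 116.6 and 128.2 CPM in nanoplastic and 101.7, 114.9 and 109.2 CPM in vehicle mice, without overlap (log2 fold change 0.19, SE 0.07, edgeR adjusted p = 0.598). It was 1 of the 8 without overlap, where 12.9% of all genes tested did not overlap. Dpp4, Dpep1, Ggt1 and Mep1a, all brush-border peptidases or transferases, were at -0.14 (SE 0.07), -0.14 (SE 0.08), -0.14 (SE 0.09) and -0.08 (SE 0.08). Lap3, a leucine aminopeptidase, was at -0.06 (SE 0.08). Nanoplastic 1 had the lowest value of all libraries in each of Dpp4, Dpep1, Ggt1 and Mep1a, as it had for Ace, Enpep and Anpep. Without it the log2 fold changes of Dpp4, Dpep1, Ggt1 and Mep1a were -0.08, -0.11, -0.06 and -0.04 in that order. It was also lowest for Lap3 and Xpnpep2 of this list, but not for Folh1 (127.4 CPM) or Cltrn (1035 CPM, against 1001 to 1059 CPM in vehicle). Nor was it lowest for the member Mme (145.1 CPM, highest of its group). The part of the tissue mix of nanoplastic 1 in these values was not tested.

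**Figure D4:**
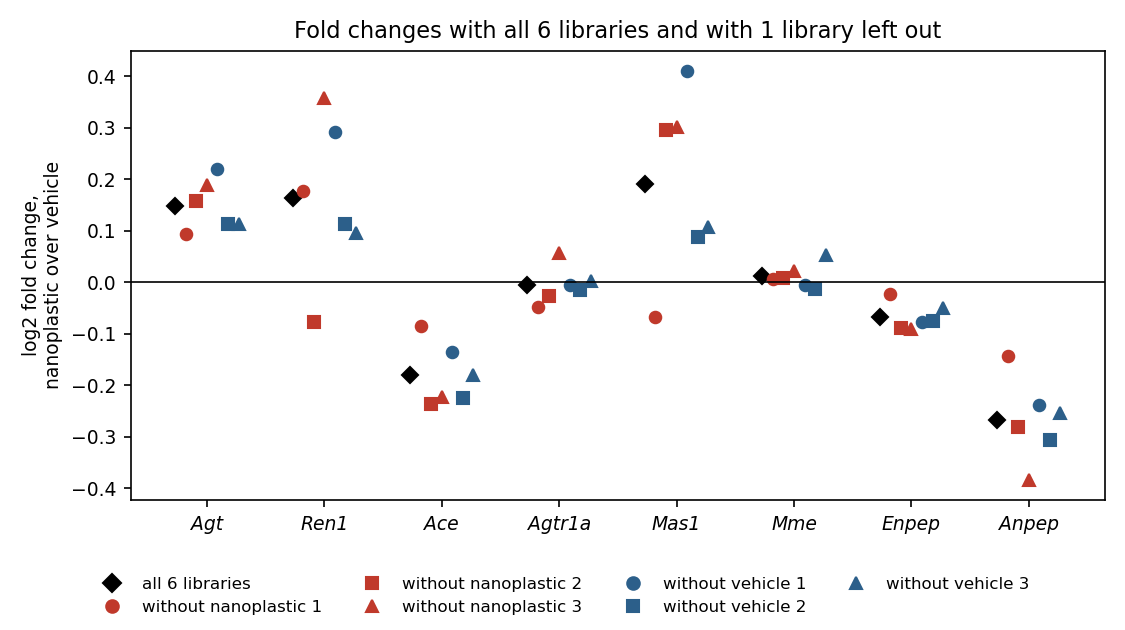
Log2 fold change of each gene with all 6 libraries (black diamonds) and with 1 library left out, red for a nanoplastic and blue for a vehicle library. Ace, Enpep and Anpep lie closest to 0 without nanoplastic 1, at -0.09, -0.02 and -0.14, and Ren1 runs from -0.08 to 0.36.

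The genes most like each member over the 6 libraries were found by Pearson correlation of log2 CPM among 10477 named genes (10478 for Mas1) with a mean of at least 5 CPM. The 6 points share library depth and the mix of tissue, and the best of so many genes is high in any case, so the values are a description. Ren1 was followed most closely by Elp3 (r = 0.988) and Ccdc148 (0.986), and Agt by Sema4b (0.988) and H2afv (0.984). Ace was followed by Dglucy (0.996) and Mtg1 (0.985), Agtr1a by Wdr35 (0.986) and Ssbp2 (0.977), and Mas1 by Ift46 (0.991) and Zswim9 (0.985). Mme was followed by Hoxd9 (0.992) and Dedd (0.978), Enpep by Acot4 (0.988) and Rabl6 (0.986), and Anpep by Rangap1 (0.997) and Map1lc3a (0.995). No member of the system was among the closest pair of another.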

How the data were processed

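Each deposited file is the gene output of RSEM for 1 kidney, and its columns hold expected counts, FPKM and TPM, per the file headers. The tools named in the submitters' processing notes are RSEM 1.3.3, STAR 2.7.9a, Trim Galore 0.6.6 and FastQC, with build GRCm39. No source used here gives the annotation release. The deposited expected counts are not normalized, the deposited TPM is scaled per transcript length, and the deposited FPKM was not used. Weighted transcript lengths were taken from the same tables. Of 57180 gene IDs, 51884 were named by gene ID and 246 by transcript ID from GENCODE vM21, which is on another build and served for names, transcript lengths and overlaps only. RefSeq promoter windows (GRCm38.p6) were matched by symbol for 7 of the 8 members.

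Expected counts were rounded and tested with edgeR 4.0.16 in R 4.3.3, after filterByExpr and TMM scaling (quasi-likelihood without the legacy setting, group as the only term, Benjamini-Hochberg over 18092 genes, threshold 0.05). Standard errors are the log2 fold change over the root of F. Alternatives used limma 3.58.1 (limma-voom, and log2(TPM + 0.1)), DESeq2 1.42.0, other scalings, no filter, left-out libraries, a replicate block, the legacy setting and DESeq2 on edgeR's genes, the last 2 chosen after seeing the data, as were the values of further genes without nanoplastic 1 and the sum without Kap. The edgeR step was tested on simulated data. A planned ratio and 1 gene of the lists are not reported here. No pair of libraries agreed within sampling noise. Intervals include variation between mice. The members and gene lists were chosen with earlier results of these data known. The text names the 8 members, the 6 genes with the lowest p of each further list, 3 fixed genes (Atp6ap2, Agtr1b, Agtr2) and the 2 genes most like each member, and genes named beyond these are markers or list members chosen after their values were seen.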

Additional observations from a re-analysis of the deposited data

How the results depend on the processing

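The count of the 8 members called stayed at 0 under all 17 alternatives, as did that of the further pathway genes. Mas1 had no adjusted p in DESeq2 and so could not be called there. Over all genes 0 were called, and DESeq2 called 55 on all genes with a count and, chosen after seeing the data, 59 on the genes past edgeR's filter. Leaving out 1 library gave 0 to 10 (10 without nanoplastic 1, 1 without nanoplastic 3, 1 without vehicle 3), and leaving out vehicle 3 and nanoplastic 1 together gave 30. Ace, Agt and Anpep kept their direction under all 17 alternatives (Anpep -0.38 to -0.13, Ace -0.24 to -0.08, Agt 0.06 to 0.22 in log2). Other signs turned. Agtr1a was 0.0398 with library size alone and 0.0476 on deposited TPM, and -0.0488 to 0.0559 with 1 library left out. On deposited TPM Enpep was 0.00127 and Atp6ap2 0.0151. With 1 library left out, Mme was -0.0123 to 0.0531, Ren1 -0.0768 to 0.36 and Mas1 -0.0666 to 0.41, and Mas1 was -0.15 without vehicle 3 and nanoplastic 1. With 2 mice in a group the spread rests on the remaining mice. The cause was not tested.

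Replicate numbers are shared between the groups only as numbers. Deviations of same-numbered libraries from their group means correlated at 0.0436, -0.0230 and 0.103, and nanoplastic 1 and 2 correlated best with another number. With a replicate block 0 genes in all, 0 members and 0 pathway genes were called.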

Other observations

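Naaladl1, a brush-border peptidase related to Folh1, was below the count filter and was not tested. It had 0, 1 and 4 counts in nanoplastic mice 1, 2 and 3 and 17, 10 and 15 counts in vehicle mice 1, 2 and 3, so the groups did not overlap. Of all genes tested, which leave Naaladl1 out, 12.9% did not overlap. No such share was taken for genes below the filter. It was named after its values were seen.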
